A study of Mus musculus with 6 samples.

Results

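The genes described here are a list of 32 mouse genes that respond to type I interferon, chosen by symbol and gene ID. They were 4 sensors of foreign nucleic acid (Ddx58, Ifih1, Dhx58 and Zbp1), 3 transcription factors (Irf7, Irf9 and Stat2) and 25 genes grouped as antiviral effectors. This last group also holds Usp18, Oasl1 and Trim30a, which are described below as regulators. Of the 32 genes, 30 had a row among the 21878 genes of the files, and Mx1 and Mx2 were not analysed here. RNA of intestinal crypts was sequenced in 6 libraries, 2 for each of 3 groups of C57BL/6 mice. Control crypts (replicates 2 and 3) came from mice without abdominal irradiation. AIR crypts (replicates 1 and 3) were taken 3 days after abdominal irradiation. AIR_MPLA crypts (replicates 1 and 3) were taken 3 days after the same irradiation, and their titles add MPLA, monophosphoryl lipid A, an agonist of Toll-like receptor 4. For the radiation dose, the dose and timing of MPLA, and the age and sex of the mice, the sources used here give nothing. All 3 groups shared strain and tissue. Whether 2 replicates are 2 mice is not in the labels, so p-values here reflect differences between libraries that may be partly technical.

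Type I interferons are secreted after a cell detects nucleic acid out of place, through sensors such as RIG-I (encoded by Ddx58) and MDA5 (encoded by Ifih1). They bind the receptor formed by Ifnar1 and Ifnar2, whose kinases Jak1 and Tyk2 phosphorylate Stat2. Stat2 and Irf9 are subunits of the factor ISGF3, which binds the interferon-stimulated response element (ISRE) in front of its target genes. Many targets encode proteins that block viral replication, and others, among them the sensors, Irf7 and Stat2, are parts of the pathway itself. In the gut epithelium type III interferons, encoded in the mouse by Ifnl2 and Ifnl3, act through another receptor and induce largely the same genes.

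The element is visible in the promoters of several of these genes. RefSeq windows on GRCm38.p6, running from 250 bases before to 50 bases after a transcription start, were at hand for 22 of the 32 genes. The ISRE core was searched as GAAA, any 2 bases and GAAA on both strands, where the other strand reads TTTC, any 2 bases and TTTC, and overlapping matches were allowed. It was found in 13 of 22 windowed genes (59.1%), against 1079 of 27025 genes with a window (3.99%). Windows are shown for 3 IFIT genes of 1 gene cluster, for Isg15 and Rsad2, whose levels are among those that differed most below, and for Irf7, whose window held no match. Capitals mark the ISRE core, and each window is read in the direction of transcription.
Ifit1, chr19:34640639-34640938, plus strand: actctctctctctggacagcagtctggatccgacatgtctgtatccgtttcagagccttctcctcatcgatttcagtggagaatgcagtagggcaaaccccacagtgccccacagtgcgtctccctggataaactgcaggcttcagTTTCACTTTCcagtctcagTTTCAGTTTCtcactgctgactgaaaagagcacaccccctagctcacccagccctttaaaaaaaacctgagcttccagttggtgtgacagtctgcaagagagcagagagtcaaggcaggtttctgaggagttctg
Ifit3, chr19:34583279-34583578, plus strand: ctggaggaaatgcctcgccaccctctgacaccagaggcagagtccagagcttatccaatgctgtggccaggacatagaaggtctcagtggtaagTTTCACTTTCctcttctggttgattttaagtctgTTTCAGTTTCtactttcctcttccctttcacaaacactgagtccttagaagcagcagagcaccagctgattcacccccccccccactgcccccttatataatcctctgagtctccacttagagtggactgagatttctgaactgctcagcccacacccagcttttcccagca
Ifit3b, chr19:34607707-34608006, plus strand: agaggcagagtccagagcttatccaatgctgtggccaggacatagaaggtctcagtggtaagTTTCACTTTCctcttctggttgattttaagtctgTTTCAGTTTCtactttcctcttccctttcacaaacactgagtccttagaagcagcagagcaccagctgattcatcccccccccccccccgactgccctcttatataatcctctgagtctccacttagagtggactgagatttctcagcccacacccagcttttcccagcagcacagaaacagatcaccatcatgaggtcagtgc
Isg15, chr4:156200769-156201068, minus strand: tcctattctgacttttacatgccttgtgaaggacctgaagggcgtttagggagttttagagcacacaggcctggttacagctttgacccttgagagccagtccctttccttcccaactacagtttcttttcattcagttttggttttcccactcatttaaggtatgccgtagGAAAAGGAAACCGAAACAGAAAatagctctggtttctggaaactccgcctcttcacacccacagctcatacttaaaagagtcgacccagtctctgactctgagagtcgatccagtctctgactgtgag
Rsad2, chr12:26456403-26456702, minus strand: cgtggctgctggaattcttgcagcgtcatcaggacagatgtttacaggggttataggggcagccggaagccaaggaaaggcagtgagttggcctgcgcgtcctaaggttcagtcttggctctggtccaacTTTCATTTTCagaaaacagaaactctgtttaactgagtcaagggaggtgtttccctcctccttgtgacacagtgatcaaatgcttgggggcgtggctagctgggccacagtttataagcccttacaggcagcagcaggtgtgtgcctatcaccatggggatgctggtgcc
Irf7, chr7:141266375-141266674, minus strand: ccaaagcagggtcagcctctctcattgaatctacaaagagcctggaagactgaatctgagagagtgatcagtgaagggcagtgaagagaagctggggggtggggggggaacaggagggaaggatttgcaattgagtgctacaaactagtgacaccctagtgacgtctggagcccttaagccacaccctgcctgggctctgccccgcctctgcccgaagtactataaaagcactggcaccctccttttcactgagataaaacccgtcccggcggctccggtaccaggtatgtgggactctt

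Ifit1, Ifit3 and Ifit3b each carried 2 separate matches, TTTCACTTTC and TTTCAGTTTC. In Ifit1 these began 104 and 85 bases before the start. Isg15 carried 3 overlapping matches that began 78, 72 and 66 bases before its start, and Rsad2 carried 1, TTTCATTTTC, that began 120 bases before its start. For Ifit3, Ifit3b and Irf7 the start used by the RefSeq table lies inside the outer bounds of the gene. The other windowed genes with a match were Bst2, Ddx58, Ifih1, Oas1a, Oas1g, Oas3, Stat2 and Trim30a. A match is a description of the letters and not a measured binding site.

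Values were FPKM, fragments scaled to the length of the gene and the size of the library, and read numbers are unknown. FPKM totals were 381669 to 492247 per library, and 9842 to 10179 genes reached 1 FPKM in each. Relative depth, read from the step between low values, was 0.747 to 0.946 of Control replicate 3. Control replicate 2 stands apart: its own file, used here, shares no value above 0.01 FPKM with its column in the series table, whereas the other 5 files equal theirs for all 21878 genes. Counts and medians that rest on Control, and calls that changed, are therefore also given with the series-table values. The tissue label was checked against 15 markers of crypt and gut epithelium. All were tested, and the lowest was the stem cell marker Lgr5, at 4.22 and 3.56 FPKM in Control and 0.266 to 1.01 in the irradiated libraries. Folds given below are log2 differences of FPKM + 1, so changes of low genes are understated, and a gene was tested where it reached 1 FPKM in at least 2 of the 6 libraries. A gene is called where the limma p-value, adjusted by Benjamini-Hochberg over all 10415 tested genes, was under 0.05.

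At 3 days after irradiation most of the interferon response genes were measured above Control, and Ifit1, Rsad2 and Usp18, all in the effector group, had the largest folds. Of the 29 tested genes 17 rose, 0 fell and 12 did not pass, and all 29 fold changes were positive, with a median of 1.31 (range 0.33 to 3.15). Among all 10415 tested genes 26.7% were called, 8.05% higher and 18.7% lower (838 and 1948 genes, or 1228 and 1124 with median-ratio scaling), with a median fold change of -0.13. Both AIR libraries lay above both Control libraries for 26 of 29, against 22.2% of all tested genes. In Zbp1, Oasl1 and Ifi27l2b the groups overlapped. Ifit2, Ifit3, Ifit3b, Oas2 and Rsad2 were under 1 FPKM in both Control libraries, and Ifi44 and Xaf1 in 1 of them, so these 7 could pass the filter only through irradiated libraries. Without them 10 of 22 rose, with a median of 1.25. Ifi27l2a was the 1 gene in the files that did not pass the filter, at 0.321 and 0.454 FPKM in Control, 0.529 and 0.680 in AIR, and 0.318 and 0.484 in AIR_MPLA.

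**Figure D1:**
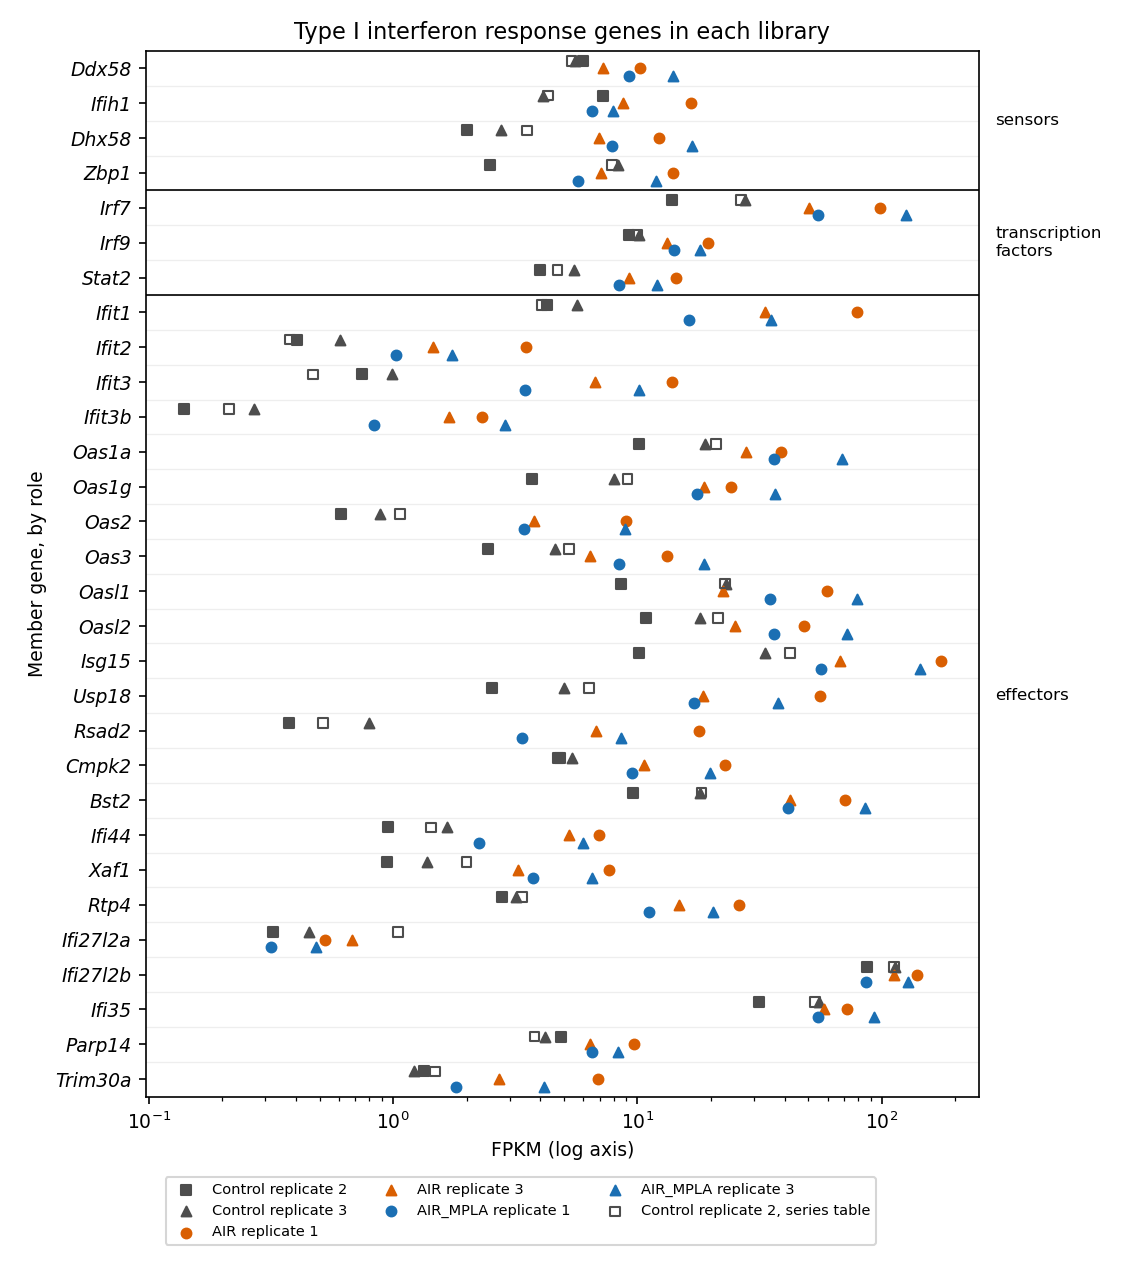
FPKM on a log axis of the 30 genes in each of the 6 libraries, by role, with 1 point per library and open squares for the series-table values of Control replicate 2. The irradiated libraries lie to the right of both Control libraries for most genes, and AIR replicate 1 (median 17.8 FPKM) and AIR_MPLA replicate 3 (median 17.9 FPKM) are the rightmost points of nearly every row.

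Among the sensors 1 of 4 rose. Dhx58, which encodes LGP2, a helicase that regulates RIG-I and MDA5, was measured at 2.02 FPKM in Control replicate 2 and 2.78 in replicate 3, at 12.3 in AIR replicate 1 and 6.98 in replicate 3, and at 7.89 in AIR_MPLA replicate 1 and 16.8 in replicate 3, the order kept for the genes that follow. All 4 irradiated libraries were above both Control libraries. Its log2 fold in AIR against Control was 1.61 (SE 0.37, limma adjusted p = 0.0233). Ifih1 was at 7.22 and 4.10 FPKM in Control, 16.6 and 8.71 in AIR, and 6.54 and 7.92 in AIR_MPLA. Its AIR libraries lay above Control, but the fold of 1.01 (SE 0.33) missed the threshold (limma adjusted p = 0.0610). It passed using the series-table version of Control replicate 2 (fold 1.33, limma adjusted p = 0.00672), with median-ratio scaling (0.0411) and without Control replicate 2 (0.0419). Ddx58 was at 5.99 and 5.56 FPKM in Control, 10.3 and 7.23 in AIR, and 9.25 and 14 in AIR_MPLA. The groups did not overlap, and the fold was 0.51 (SE 0.24, limma adjusted p = 0.146). Zbp1, a sensor of Z-form nucleic acid that can trigger necroptosis, was at 2.5 and 8.36 FPKM in Control, 13.9 and 7.10 in AIR, and 5.72 and 11.9 in AIR_MPLA. Control replicate 3 lay above AIR replicate 3, and the fold of 0.94 (SE 0.53, limma adjusted p = 0.219) was within the spread of these libraries. With the series-table values, where Control replicate 2 was at 7.88 FPKM, the fold was 0.27.

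Of the transcription factors 2 of 3 rose. Irf7, which drives the transcription of interferon genes and is itself induced by interferon, was at 13.8 and 27.5 FPKM in Control, 98.2 and 50.5 in AIR, and 54.7 and 126 in AIR_MPLA. Every irradiated library was above both Control libraries, and the log2 fold in AIR was 1.80 (SE 0.50, limma adjusted p = 0.0388). Using the series-table version of Control replicate 2, where Irf7 was at 26.5 FPKM, the fold was 1.35 and the call was lost (limma adjusted p = 0.0537). Stat2, a subunit of ISGF3, was at 3.99 and 5.51 FPKM in Control, 14.4 and 9.27 in AIR, and 8.37 and 12 in AIR_MPLA. It rose by 1.14 in AIR (SE 0.26, limma adjusted p = 0.0238), without overlap of the groups. Irf9, the DNA-binding subunit of ISGF3, was at 9.24 and 10.1 FPKM in Control, 19.5 and 13.2 in AIR, and 14.1 and 17.9 in AIR_MPLA. The groups did not overlap either, and the fold was 0.68 (SE 0.21, limma adjusted p = 0.0571). Irf9 passed with the series-table values (limma adjusted p = 0.0213), with median-ratio scaling (0.0344), with upper-quartile scaling (0.0405) and with the GC trend removed (0.0186).

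The effectors rose in 14 of 22 tested genes, beginning with the IFIT family, whose proteins bind viral RNA or hinder its translation. All 4 IFIT genes rose, with a median log2 fold of 1.92. Ifit2, Ifit3 and Ifit3b passed the filter only through irradiated libraries, so the filter favoured their rise, and only Ifit1 was free of this. The 4 genes lie next to each other on chromosome 19, within 34550550 to 34650009 of GRCm38.p6. Ifit1 was at 4.25 and 5.65 FPKM in Control, 78.8 and 33.4 in AIR, and 16.2 and 35 in AIR_MPLA. The lower AIR library was well above both Control libraries, and the fold of 3.15 (SE 0.46, limma adjusted p = 0.0089) was the largest of the 29. Mean Ifit1 stood at the percentile 33.0 of tested genes in Control and 89.9 in AIR. Ifit3 was at 0.746 and 0.990 FPKM in Control, 13.8 and 6.70 in AIR, and 3.45 and 10.1 in AIR_MPLA, and rose by 2.52 in AIR (SE 0.46, limma adjusted p = 0.0132). Its near copy Ifit3b was at 0.140 and 0.270 FPKM in Control, 2.31 and 1.70 in AIR, and 0.837 and 2.88 in AIR_MPLA, and rose by 1.31 (SE 0.34, limma adjusted p = 0.0311). The pair share long stretches of sequence, seen also in the windows above, so the split of reads between them is uncertain. Ifit2 was at 0.405 and 0.607 FPKM in Control, 3.51 and 1.45 in AIR, and 1.03 and 1.74 in AIR_MPLA, with a fold of 1.15 (SE 0.30, limma adjusted p = 0.0345). With the GC trend removed Ifit2 and Ifit3b were no longer called (limma adjusted p = 0.0556 and 0.0603).

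The OAS genes encode synthases of short oligoadenylates that activate RNase L, and the related OASL proteins. Of these 6 genes 2 rose, with a median log2 fold of 1.28, and Oas2 passed the filter only through irradiated libraries. Oas2 was at 0.610 and 0.887 FPKM in Control, 8.95 and 3.77 in AIR, and 3.44 and 8.85 in AIR_MPLA. It rose by 1.98 (SE 0.45, limma adjusted p = 0.0222), with every irradiated library above Control. Oas1g was at 3.71 and 8.05 FPKM in Control, 24.2 and 18.7 in AIR, and 17.5 and 36.4 in AIR_MPLA, and rose by 1.77 (SE 0.41, limma adjusted p = 0.0232). Oas1a, a paralogue of Oas1g in the same cluster on chromosome 5, was at 10.1 and 18.9 FPKM in Control, 38.5 and 27.8 in AIR, and 36.2 and 68.7 in AIR_MPLA. Its groups did not overlap, and the fold was 1.18 (SE 0.38, limma adjusted p = 0.0571). Oas1a passed with median-ratio (0.0443) or upper-quartile scaling (0.0447), with only the 4 libraries compared (0.0464) and with the GC trend removed (0.0340), and its fold was 0.69 with the series-table values. How reads were shared between Oas1a and Oas1g, and between Oasl1 and Oasl2, is uncertain. Oas3 was at 2.44 and 4.6 FPKM in Control, 13.2 and 6.38 in AIR, and 8.40 and 18.8 in AIR_MPLA, with a fold of 1.22 (limma adjusted p = 0.0837). Oasl2 was at 10.8 and 18.0 FPKM in Control, 47.8 and 25.0 in AIR, and 36.0 and 72.1 in AIR_MPLA, with a fold of 1.25 (limma adjusted p = 0.0675). Both had groups without overlap but missed the threshold, and Oas3 passed with the GC trend removed (limma adjusted p = 0.0443). Oasl1, in the mouse an inhibitor of Irf7 translation, was at 8.58 and 23.0 FPKM in Control, 59.8 and 22.4 in AIR, and 35 and 79.0 in AIR_MPLA. AIR replicate 3 lay just under Control replicate 3, and the fold was 1.31 (SE 0.61, limma adjusted p = 0.149), or 0.66 with the series-table values. With the series-table values the median fold of the 6 OAS genes was 0.79, and that version of Control replicate 2 held them at 1.07 to 22.8 FPKM, against 0.610 to 10.8 in its own file.

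Both genes of the ISG15 system rose. Isg15, a ubiquitin-like protein joined to other proteins, was at 10.2 and 33.4 FPKM in Control, 174 and 67.2 in AIR, and 56.5 and 143 in AIR_MPLA. It had the highest level of the called genes, and both AIR libraries were above Control (fold 2.48, SE 0.68, limma adjusted p = 0.0383). Using the series-table version of Control replicate 2, at 42.1 FPKM, the fold was 1.51 and was not called (limma adjusted p = 0.0768). Usp18, which removes Isg15 from proteins and dampens signalling at the interferon receptor, was at 2.53 and 5.02 FPKM in Control, 55.9 and 18.6 in AIR, and 17.0 and 37.5 in AIR_MPLA. It rose by 2.85 (SE 0.56, limma adjusted p = 0.0155), and the AIR libraries differed from each other by a ratio of 3.01, the widest of all 29 genes.

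Of the other 10 tested effectors 6 rose, among them Rsad2, Ifi44 and Xaf1, which could pass the filter only through irradiated libraries. Rsad2 encodes viperin, which makes a chain-terminating nucleotide, and the mitochondrial nucleotide kinase gene Cmpk2 lies beside it on chromosome 12. Rsad2 was at 0.376 and 0.797 FPKM in Control, 17.8 and 6.74 in AIR, and 3.38 and 8.55 in AIR_MPLA, and rose by 2.94 (SE 0.49, limma adjusted p = 0.0110). Cmpk2 was at 4.84 and 5.39 FPKM in Control, 22.8 and 10.6 in AIR, and 9.47 and 19.8 in AIR_MPLA, and rose by 1.45 (SE 0.41, limma adjusted p = 0.0410). In both, each irradiated library exceeded both Control libraries, and the smaller rise of Cmpk2 was not called with the GC trend removed (limma adjusted p = 0.0517). Rtp4, an interferon-induced gene with antiviral activity, was at 2.78 and 3.19 FPKM in Control, 25.9 and 14.8 in AIR, and 11.1 and 20.4 in AIR_MPLA. Its rise of 2.38 (SE 0.33, limma adjusted p = 0.00813) had the smallest p of the 29 genes. Bst2, which encodes tetherin, a protein that holds budding virus at the membrane, was at 9.55 and 18.0 FPKM in Control, 70.6 and 42.2 in AIR, and 41.3 and 85.0 in AIR_MPLA (fold 1.97, SE 0.43, limma adjusted p = 0.0201). Ifi44 was at 0.952 and 1.67 FPKM in Control, 6.98 and 5.27 in AIR, and 2.25 and 5.96 in AIR_MPLA (fold 1.63, limma adjusted p = 0.0212). Ifi44 lost its call with the GC trend removed (limma adjusted p = 0.0764). Xaf1, which encodes a binding partner and antagonist of the apoptosis inhibitor XIAP, was at 0.941 and 1.37 FPKM in Control, 7.65 and 3.24 in AIR, and 3.73 and 6.52 in AIR_MPLA (fold 1.5, limma adjusted p = 0.0280).

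The remaining 4 effectors did not pass. Trim30a, in the mouse a negative regulator of Toll-like receptor signalling, was at 1.34 and 1.22 FPKM in Control, 6.92 and 2.71 in AIR, and 1.82 and 4.15 in AIR_MPLA (fold 1.25, limma adjusted p = 0.0584). Parp14, an ADP-ribosyltransferase, was at 4.85 and 4.17 FPKM in Control, 9.72 and 6.36 in AIR, and 6.53 and 8.31 in AIR_MPLA (fold 0.69, limma adjusted p = 0.0578). Both were higher in each AIR library than in either Control library. Parp14 passed with the series-table values (limma adjusted p = 0.00720), with median-ratio (0.0345) or upper-quartile scaling (0.0450), with the GC trend removed (0.0349) and without Control replicate 2 (0.0460). Trim30a passed with median-ratio scaling (limma adjusted p = 0.0471) and with a pseudocount of 0.1 (0.0485). Ifi35 was at 31.3 and 55.4 FPKM in Control, 71.8 and 58.0 in AIR, and 54.7 and 93.0 in AIR_MPLA (fold 0.62, limma adjusted p = 0.204), and passed with the GC trend removed (0.97, limma adjusted p = 0.0447). Ifi27l2b was at 86.8 and 114 FPKM in Control, 140 and 112 in AIR, and 86.1 and 128 in AIR_MPLA (fold 0.33, limma adjusted p = 0.343). Ifi27l2b thus had the highest Control level and the smallest fold of the 29 genes, and reads may be shared with its paralogue Ifi27l2a.

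By role, the median log2 fold in AIR against Control was 0.98 for the 4 sensors, 1.14 for the 3 transcription factors and 1.47 for the 22 effectors. The 7 genes that could pass the filter only through irradiated libraries were all effectors. The effector median thus includes genes that the filter selected for being high after irradiation. The ranges overlapped, at 0.51 to 1.61, 0.68 to 1.80 and 0.33 to 3.15, and a difference between the roles was not tested. The 13 genes with an ISRE match had a median fold of 1.31, and so did the 9 windowed genes without one.

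The count of 17 rested on single libraries. Without AIR replicate 1 it was 0 of 29 (0.47% of all genes higher), and without AIR replicate 3 it was 11 (3.41%). Leaving out Control replicate 2 or Control replicate 3 left 3 each (16.2% and 6.24% of all genes higher), of which Rtp4 was called in both. The median fold was 0.95 without AIR replicate 1 and 1.81 without AIR replicate 3. Using the series-table version of Control replicate 2, 18 were higher, 15 of them among the 17, against 25% of all genes, and the median fold was 1.22. With no filter 5 of the 17 stayed called, where 3.64% of all genes were higher. The calls lost were Bst2, Cmpk2, Dhx58, Ifi44, Ifit2, Ifit3b, Irf7, Isg15, Oas1g, Oas2, Stat2 and Xaf1 (limma adjusted p = 0.0555 to 0.0952).

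**Figure D2:**
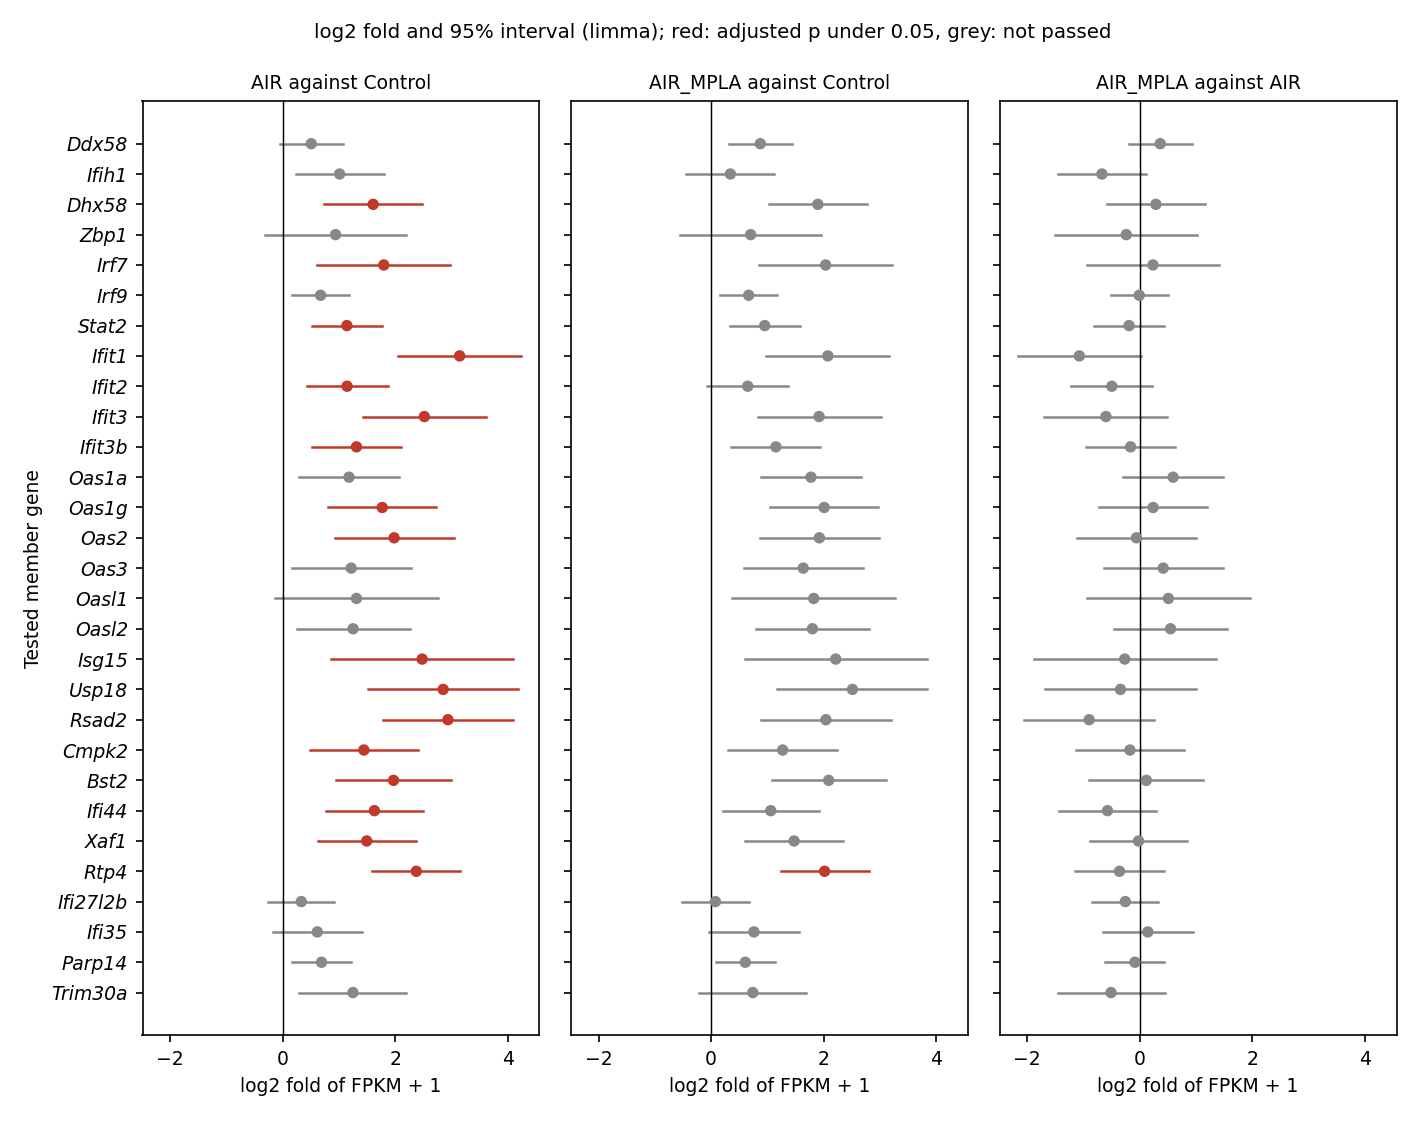
Log2 fold of FPKM + 1 with its 95% interval from limma for the 29 tested genes in 3 comparisons, red where the adjusted p was under 0.05. In AIR against Control all 29 points lie right of 0 and 17 are red, in AIR_MPLA against Control 1 is red, and in AIR_MPLA against AIR none is red and the points lie on both sides of 0.

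Between the replicates of an irradiated group all 29 genes differed in 1 direction, and the direction was opposite in AIR and AIR_MPLA. AIR replicate 1 was higher than AIR replicate 3 in 29 of 29 genes, with FPKM ratios from 1.24 (Ifi35) to 3.01 (Usp18) and a median of 1.91. Over all tested genes AIR replicate 1 was the higher in 49.1%. In AIR_MPLA it was replicate 3 that stood above replicate 1 in 29 of 29, with ratios from 1.21 (Ifih1) to 3.44 (Ifit3b) and a median of 2.08, against 45.4% of all genes. Differences between AIR replicates of over 1 on the log2 scale occurred in 9 of 29 (31.0%, against 1.74% of all genes), and between AIR_MPLA replicates in 13 of 29 (44.8%, against 0.442%). In Control, replicate 3 was higher in 25 of 29, against 49.9% of all genes, with a median difference of 0.38 in its favour. With the series-table values the Control replicates split 13 to 16, against 41.5% and 58.4% of all genes. The median level of the 29 genes was 3.99 FPKM in Control replicate 2 and 5.39 in replicate 3. It was 17.8 in AIR replicate 1 and 9.27 in replicate 3, and 9.25 in AIR_MPLA replicate 1 and 17.9 in replicate 3. The lower library of each irradiated group was thus at nearly the same level, as was the higher one. AIR replicate 1 was the highest library for 18 of the 30 genes, AIR_MPLA replicate 3 for 11 and AIR replicate 3 for 1.

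**Figure D3:**
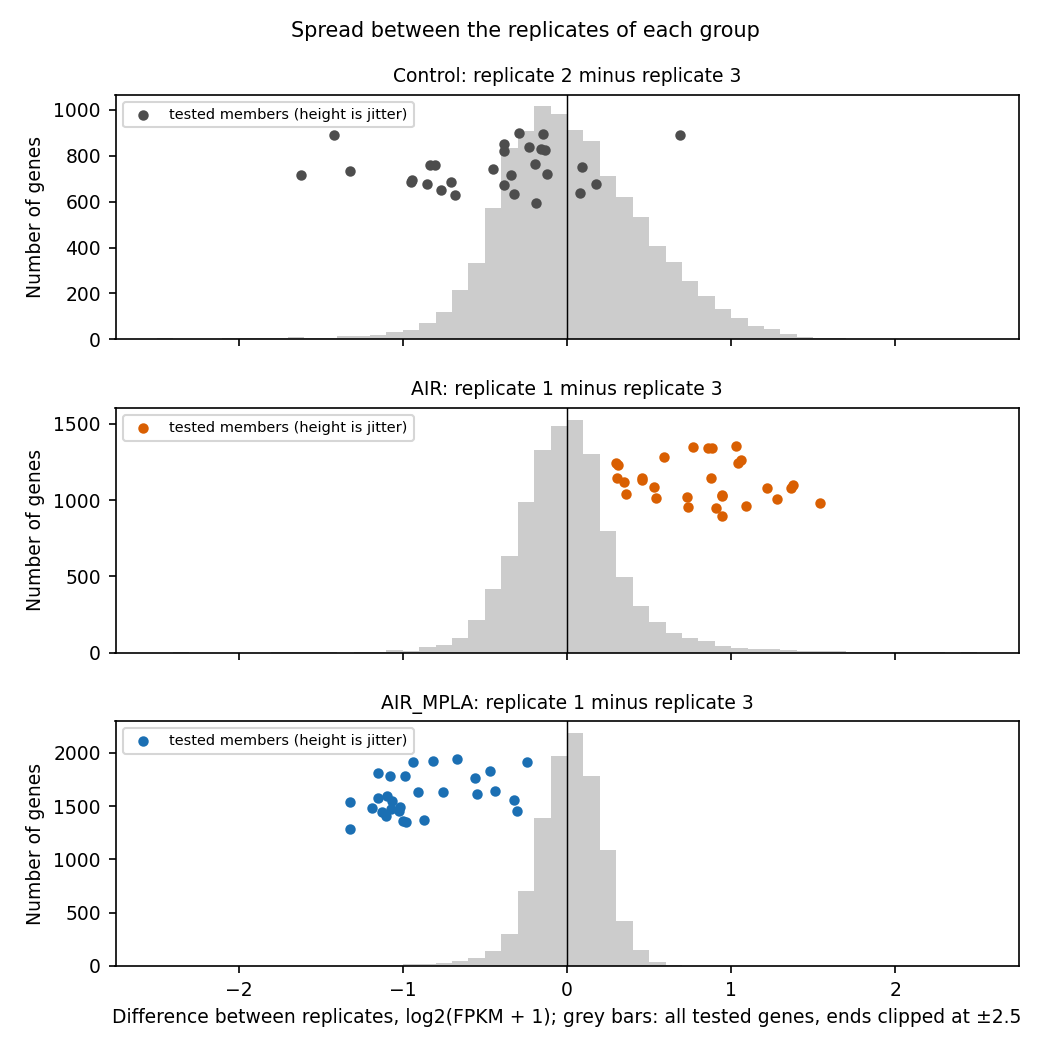
Difference between the replicates of each group on the log2(FPKM + 1) scale, with grey bars for the number of tested genes and points for the 29 interferon response genes, whose height is arbitrary. All 29 points lie right of 0 in AIR and left of 0 in AIR_MPLA, while the bars are centred near 0.

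Cell type markers also moved with the groups, and their part in the results was not tested. Of the 15 epithelial markers 7 fell and 1 rose in AIR against Control, against 18.7% and 8.05% of all genes. In AIR_MPLA against AIR 6 rose and 1 fell, against 19.5% and 9.9% of all genes. After irradiation the stem cell markers Lgr5 (fold -1.94, limma adjusted p = 0.00453) and Olfm4 (-2.06, limma adjusted p = 0.0212) and the Paneth cell gene Lyz1 (-1.83, limma adjusted p = 0.0384) fell, and the enterocyte gene Fabp2 rose (1.48, limma adjusted p = 0.0103). The 15 epithelial markers summed to 8575 to 14688 FPKM in Control, 7102 to 7528 in AIR and 7995 to 8059 in AIR_MPLA. Lyz1 weighed heavily in these sums. It alone was at 2890 and 9079 FPKM in Control, 1341 and 1556 in AIR, and 2575 and 1919 in AIR_MPLA. In bulk tissue, fewer cells of a type and less RNA per cell cannot be told apart. All 9 tested markers of T cells and intraepithelial lymphocytes fell in AIR against Control, where 18.7% of all genes did. Their summed level was 147 to 220 FPKM in Control, 39.4 to 50.1 in AIR and 24.0 to 37.0 in AIR_MPLA. They were higher in replicate 3 for 9 of 9 in Control, 8 of 9 in AIR and 8 of 9 in AIR_MPLA, the order of the interferon response genes in Control and AIR_MPLA and the opposite order in AIR. Of 14 macrophage and dendritic cell markers 9 were under 1 FPKM in every library, and the sum was 4.13 to 7.5 FPKM in Control. It was 11 in AIR replicate 1 and 6.37 in replicate 3, and 7.77 in AIR_MPLA replicate 1 and 4.95 in replicate 3. Their order matched that of the interferon response genes in AIR and was opposite in AIR_MPLA. Of the 4 tested macrophage and dendritic cell markers 0 rose and 1 fell in AIR against Control, against 8.05% and 18.7% of all genes. The marker that fell was Itgam, at 1.79 and 2.36 FPKM in Control and 0.914 and 0.882 in AIR (fold -0.69, limma adjusted p = 0.0275). Neutrophil markers summed to 0 FPKM in both Control libraries, to 8.28 in AIR replicate 1 and 2.64 in replicate 3. They summed to 0.173 in AIR_MPLA replicate 1 and 1.10 in replicate 3, with Mpo and Elane at 0 in every library. The order of these low sums was that of the interferon response genes in AIR and AIR_MPLA. Ly6g made up 5.56 FPKM of the sum in AIR replicate 1. Only S100a8 was tested, at 0 FPKM in Control and 1.63 and 1.45 in AIR, and it passed the filter only through AIR. It was called higher in AIR against Control (fold 1.34, limma adjusted p = 0.00605) and lower in AIR_MPLA against AIR (-1.20, limma adjusted p = 0.0153). Bst2 is also used as a marker of plasmacytoid dendritic cells. Siglech, which defines them, was listed at 0 in all 4 irradiated libraries, and 6 of the 8 markers were under 1 FPKM in every library. Without Bst2 the other 7, nearly all of it Klk1, summed to 56.2 and 87.8 FPKM in Control, 43.3 and 61.9 in AIR, and 82.0 and 80.4 in AIR_MPLA. B and plasma cell markers summed to 3.54 to 9.33 FPKM in Control, 0.683 to 2.85 in AIR and 1.29 to 1.38 in AIR_MPLA. The 8 markers of fibroblasts and endothelium were under 1 FPKM in every library.

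With MPLA added to irradiation no gene of the list was called different. In AIR_MPLA against AIR, limma called 0 of 29 after adjustment and 0 at an unadjusted p under 0.05 (45.3% of all genes), whereas 29.4% of all genes were called (19.5% higher and 9.9% lower, that is 2029 and 1031, or 1078 and 1453 with median-ratio scaling). The median fold was -0.16 (range -1.07 to 0.59), against 0.15 for all tested genes, and 10 of 29 folds were positive. The groups overlapped for 28 of 29 genes. Ifih1 was the exception, with both AIR_MPLA libraries below both AIR libraries (fold -0.67, 95% interval -1.46 to 0.11, limma adjusted p = 0.156), as were 29.7% of all tested genes. The intervals leave room for differences in either direction. For Ifit1 the fold was -1.07 (95% interval -2.17 to 0.02, limma adjusted p = 0.115), for Rsad2 it was -0.90 (-2.06 to 0.26), and for Isg15 it was -0.27 (-1.88 to 1.35). Folds of the 4 IFIT genes were all negative, with a median of -0.55, although Ifit3b had a positive fold with the GC trend removed. Of the 6 OAS genes 5 were positive, with a median of 0.46 and Oas1a at 0.59 (-0.30 to 1.48). Medians for sensors, transcription factors and effectors were 0.02, -0.01 and -0.17. The sign of the overall median turned with the library left out, from 0.30 without AIR replicate 1 and 0.31 without AIR_MPLA replicate 1 to -0.49 without AIR replicate 3 and -0.54 without AIR_MPLA replicate 3.

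In AIR_MPLA against Control, which shares the Control libraries with AIR against Control, the folds were positive throughout but only 1 gene passed. The 29 folds had a median of 1.64 (range 0.08 to 2.51), and both AIR_MPLA libraries were above both Control libraries for 25 of 29, against 25% of all genes. This was Rtp4 (fold 2.02, 95% interval 1.23 to 2.80, limma adjusted p = 0.0436), where 1.48% of all genes were called and 0.643% were higher. Before adjustment 23 of 29 had p under 0.05, against 16.1% of all genes. Rtp4 lost the call without any 1 of the 6 libraries. The folds beside those of AIR were 2.07 and 3.15 for Ifit1, 2.51 and 2.85 for Usp18, 2.21 and 2.48 for Isg15, 2.03 and 1.80 for Irf7, 1.90 and 1.61 for Dhx58, and 2.09 and 1.97 for Bst2. With the series-table values 3 genes were higher (Rtp4, Ddx58 and Parp14), against 5.54% of all genes, and the median was 1.21.

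Upstream of these genes the interferons themselves were scarcely detected. All 11 ligand genes in the files were under 1 FPKM in every library and listed at 0 in both Control libraries, so none was tested. Ifnb1 was at 0.0655 FPKM in AIR replicate 1 and at 0 in the other 5 libraries. The type III genes Ifnl2 and Ifnl3 were at 0.256 and 0.174 FPKM in AIR replicate 1, and Ifnl3 was at 0.0838 in AIR_MPLA replicate 3. Ifnk was at 0.0616 and 0.0721 FPKM in AIR, and Ifnz was at 0.0973 in AIR replicate 3 and 0.0406 in AIR_MPLA replicate 3. With read depth unknown, these traces give no order of the libraries. Summed ligands were 0.651 FPKM in AIR replicate 1 and 0.225 in replicate 3, and 0 in AIR_MPLA replicate 1 and 0.124 in replicate 3.

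Receptors and their kinases did not pass in AIR against Control (0 of 10, median fold 0.10). Ifnar1 was at 6.62 to 7.66 FPKM over all 6 libraries, and Ifnlr1, the type III receptor chain, at 2.77 to 5.41. In AIR_MPLA against AIR the kinase gene Jak2 was at 5.66 and 5.32 against 11.1 and 10.1 and fell by 0.84 (limma adjusted p = 0.0352). Of 11 tested sensing and adaptor genes 2 fell and 0 rose after irradiation (18.7% and 8.05% of all genes), a share near the background. They were Mavs, the adaptor of RIG-I and MDA5, at 16.8 and 26.5 FPKM in Control and 8.99 and 10.2 in AIR (fold -1.06, limma adjusted p = 0.0170), and Irf3, the factor that first drives Ifnb1, at 21 and 26.9 against 12.3 and 16.3 (fold -0.71, limma adjusted p = 0.0362). Irf3 lost the call with median-ratio scaling (-0.54, limma adjusted p = 0.0905), with upper-quartile scaling (0.0514), with no filter (0.0689), with only the 4 libraries compared (0.0787) and with the GC trend removed (-0.36, 0.141). With MPLA 3 of 11 rose, where 19.5% of all genes did: Mavs by 1.16 (limma adjusted p = 0.0181), Ticam1, the TRIF adaptor of Toll-like receptors 3 and 4, by 1.01 (limma adjusted p = 0.0181), and Myd88, the adaptor of most Toll-like receptors, by 0.61 (limma adjusted p = 0.0448). Tlr4 itself was under 1 FPKM in every library. In AIR_MPLA against Control 0 of these 11 tested genes passed, where 1.48% of all genes were called. The folds there were 0.09 for Mavs, 0.48 for Ticam1 and 0.38 for Myd88. Of 9 negative regulators 1 fell after irradiation, against 18.7% of all genes (the phosphatase gene Ptpn6, fold -0.76, limma adjusted p = 0.0275, not called with median-ratio scaling or the GC trend removed), and 1 rose with MPLA, against 19.5% (Adar, which edits double-stranded RNA, fold 0.63, limma adjusted p = 0.0485).

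Among 35 other tested interferon-stimulated genes 12 rose and 3 fell after irradiation, against 8.05% and 18.7% of all genes, with a median fold of 0.55. Phf11d, Slfn5 and Nlrc5 were under 1 FPKM in both Control libraries and passed the filter only through irradiated libraries, and without these 3 genes 10 of 32 rose, with a median of 0.44. Ddx60, a helicase gene, was at 2.26 and 1.68 FPKM in Control, 27.1 and 15.4 in AIR, and 5.55 and 9.37 in AIR_MPLA. It rose by 2.86 in AIR (limma adjusted p = 0.00546) and fell by 1.38 in AIR_MPLA against AIR (limma adjusted p = 0.0247). Phf11d rose by 1.88 (limma adjusted p = 0.00948), Herc6, a ligase that joins Isg15 to proteins in the mouse, by 1.42 (limma adjusted p = 0.0201), and Eif2ak2, which encodes the kinase PKR, by 0.86 (limma adjusted p = 0.0234). The other risers were Parp9, Parp12, Slfn2, Slfn5, Sp100, Trim34a, Apol9a and Hsh2d. Those that fell were Irf1, Trim14 and Ifitm2, a membrane restriction factor at 212 and 338 FPKM in Control and 96.7 and 101 in AIR (fold -1.43, limma adjusted p = 0.0110). With MPLA 5 of 35 rose (Lgals3bp, Lgals9, Ifitm2, Ifitm3 and Trim14, by 0.91 to 1.2) and 2 fell (Ddx60 and Pnpt1), against 19.5% and 9.9% of all genes. In AIR_MPLA against Control 0 of the 35 passed, where only 1.48% of all genes were called. The 5 risers had folds there of 0.91, 0.71, -0.35, 0.47 and 0.29, in the order named. These 35 followed the replicate order of the list, with AIR replicate 1 higher in 30 and AIR_MPLA replicate 3 higher in 33. Of the 18 pathway genes called in AIR against Control, 10 stayed called with the GC trend removed, where 24.7% of all genes were called. With the series-table values 16 stayed called, against 62.4% of all genes, and Parp12 and Apol9a were lost (limma adjusted p = 0.0656 and 0.101). Many of the 18 calls were lost with a library left out, while the folds kept their sign (Ddx60 at 2.47 to 3.25). Of the 13 calls in AIR_MPLA against AIR, Mavs, Ticam1 and Pnpt1 were kept with the GC trend removed, where 13.6% of all genes were called. Without any 1 of the 4 irradiated libraries these calls were lost, as were those of all other genes, while the 13 folds kept their sign.

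**Figure D4:**
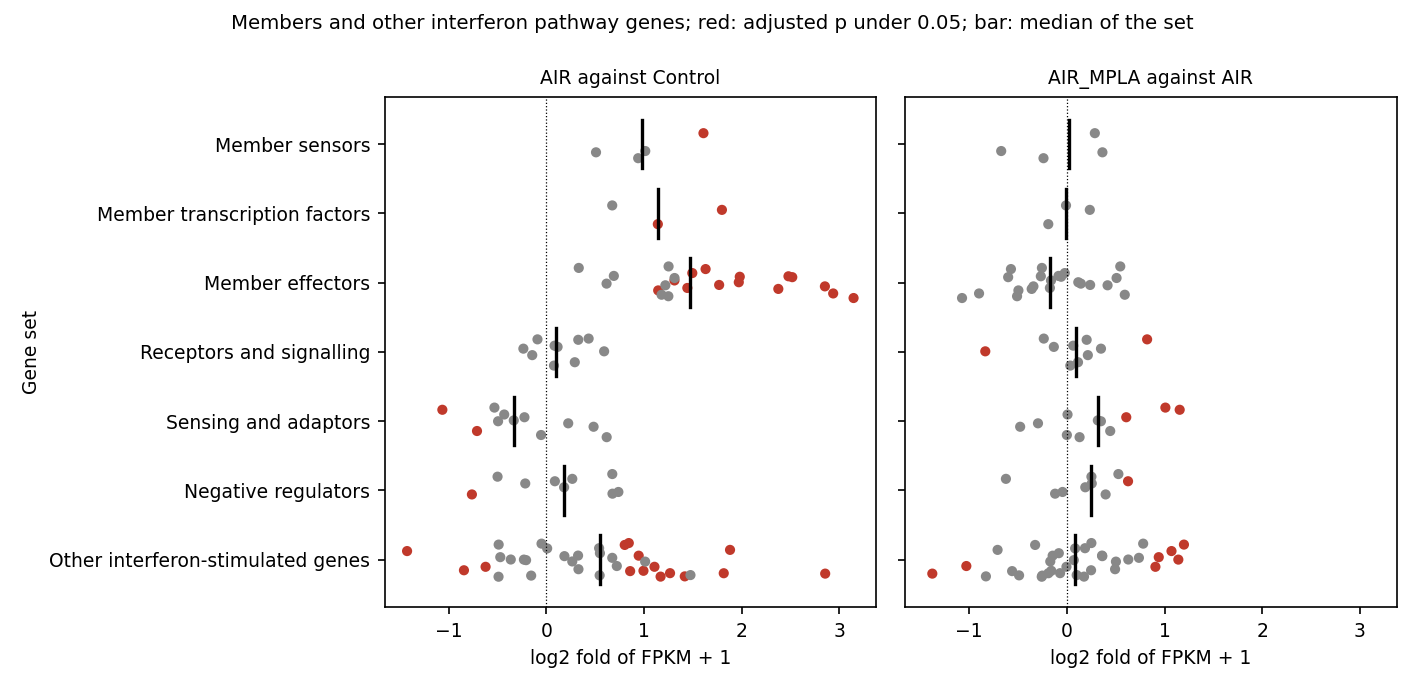
Log2 fold of FPKM + 1 for the interferon response genes by role and for other interferon pathway genes in 2 comparisons, with 1 point per tested gene, red where the adjusted p was under 0.05, and a bar at the median of each set. In AIR against Control the medians of the 3 roles (0.98, 1.14 and 1.47) lie right of those of receptors and signalling (0.10), sensing and adaptors (-0.33), negative regulators (0.18) and other interferon-stimulated genes (0.55). The effectors and the other interferon-stimulated genes include genes that could pass the filter only through irradiated libraries.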

How the data were processed

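RNA of intestinal crypts was extracted with Trizol and made into libraries with the Illumina TruSeq RNA kit, per the labels' protocols. The GRCm38.p6 build and the tools HTSeq, Cufflinks, HISAT2 and Trimmomatic are named, per the submitters' processing notes; tool order, versions and strand use are not given in the sources here, so reads of overlapping antisense genes may be mixed. The authors deposited FPKM per gene, and the columns headed as counts in the single-sample files also held FPKM (equal to the series table within 1e-06 in 5 of 6 files). The series-table values of Control replicate 2 differ from its own file (FPKM totals 503961 and 381669).

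Groups came from the sample titles. A count test was planned for counts; as the values are FPKM, its stated substitute was used. With limma 3.58.1 in R 4.3.3, log2(FPKM + 1) was fitted with 1 mean per group over all 6 libraries, with empirical Bayes moderation (trend and robust options on), with Benjamini-Hochberg adjustment at 0.05, and the steps were tested on simulated data. The tested genes had at least 1 FPKM in at least 2 of 6 libraries. Alternatives were median-ratio and upper-quartile scaling, no filter or one of 5 FPKM, a pseudocount of 0.1, only the 4 libraries compared, series-table values of Control replicate 2, removal of a GC trend (lowess, span 0.3, GC known for 99.4% of tested genes), each library left out, and a replicate block on the irradiated libraries. Where 1 library remained in a group, its variance was assumed to equal that of the others. By the rule for named genes, every gene of the list was described. The interferon response genes and all other lists were chosen with earlier results of these data known. Gene IDs matched RefSeq for 21727 of 21878 genes. Relative depth was the most common ratio of values up to 0.1 FPKM, taken against Control replicate 3 (3.98% to 14.1% of ratios lay at it); no counting interval can be given. Trac, Trdc and Igkc, like Mx1 and Mx2, had no row and were not analysed here. Tables used Python 3.11.15 with pandas 2.3.3 and figures matplotlib 3.10.9.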

Additional observations from a re-analysis of the deposited data

How the results depend on the processing

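In AIR against Control every fold of the 29 tested genes stayed positive under all alternatives, but the count higher did not hold. It was 17 as reported, 5 with no filter (where 16529 genes were tested), 15 to 22 under the other settings with all libraries, and 0 to 18 when each library was left out. The median fold was 1.31, and 1.85 with a pseudocount of 0.1. Over all genes 2786 were called, 1427 with only the 4 libraries compared and 6490 using the series-table version of Control replicate 2. The cause of these shifts was not tested.

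In AIR_MPLA against AIR no gene of the list was called under any setting but the crossed numbers given below, while the genes called overall were 3060 as reported, 1415 with the GC trend removed, 1181 with no filter, 4899 with only the 4 libraries compared, 5724 with the series-table values and 0 without any 1 of the irradiated libraries. Leaving out libraries turned signs: the median fold ranged from -0.54 to 0.31, and gene by gene the folds ranged from -0.40 to 0.63 (Bst2), -0.69 to 0.35 (Cmpk2), -0.21 to 0.79 (Dhx58), -0.54 to 0.025 (Ifi27l2b), -0.24 to 0.52 (Ifi35), -1.26 to 0.06 (Ifit3), -0.70 to 0.38 (Ifit3b), -0.36 to 0.83 (Irf7), -0.27 to 0.26 (Irf9), -0.95 to 0.41 (Isg15), -0.27 to 0.75 (Oas1g), -0.64 to 0.52 (Oas2), -0.12 to 0.95 (Oas3), -0.18 to 1.2 (Oasl1), -0.36 to 0.19 (Parp14), -0.77 to 0.048 (Rtp4), -0.49 to 0.10 (Stat2), -1.06 to 0.036 (Trim30a), -1.11 to 0.43 (Usp18), -0.54 to 0.49 (Xaf1) and -0.71 to 0.23 (Zbp1). Bst2 and Ifi35, at 0.12 and 0.14 as reported, were at -0.045 and -0.019 with median-ratio scaling and at -0.033 and -0.007 with upper-quartile scaling. Both with and without the replicate block, removing the GC trend turned the sign of Bst2 (-0.37), Dhx58 (-0.12), Ifi35 (-0.31), Ifit3b (0.06), Irf7 (-0.24), Oas1g (-0.086), Oas3 (-0.018), Trim30a (0.12) and Xaf1 (0.023).

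Same-numbered AIR and AIR_MPLA libraries did not deviate together (r = -0.33 over 10415 genes), so replicate numbers were not taken to pair them. With the replicate block 0 genes of the list were called, with the same signs, and 3562 genes overall; with the block and the GC trend removed the counts were 0 and 0. With the numbers crossed, chosen after seeing the data, 5 genes of the list were called higher and 8 lower, against 33.4% and 21.5% of all genes.

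In AIR_MPLA against Control the count higher was 1, 0 with no filter, with a filter of 5 FPKM and with only the 4 libraries compared, 3 with the series-table values, and 0 to 2 when each library was left out, where the median fold ranged from 1.14 to 2.17. Folds near 0 turned sign for Ifi27l2b (-0.10 with the series-table values, -0.001 with the GC trend removed, and -0.20 to 0.36 with a library left out), Ifih1 (-0.003 to 0.69) and Zbp1 (-0.007 to 1.41). The genes called overall were 154, 283 with the GC trend removed and 1108 with the series-table values. Depth in reads is unknown, which limits what can be said of genes under 1 FPKM.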
